A study of Homo sapiens with 6 samples.

Results

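The transcription factor AP-1 was examined through the genes of its FOS and JUN subunits and their close partners in A2780 cells, a human ovarian cancer line, with and without knockdown of USP39, a component of the spliceosome. The members were chosen by name, with earlier results of these data known: FOS, FOSB, FOSL1, FOSL2, JUN, JUNB, JUND, MAFF and BATF3. Of these 9 genes, 8 had a row among the 16571 gene symbols of the count table and JUND was not analysed here. RNA-seq had been done on 3 libraries of A2780 cells carrying the control lentiviral vector (pGIPZ-NC) and 3 libraries of cells carrying the short hairpin against USP39 (shUSP39). Both groups were stable lines selected with puromycin after infection, so the selection and the vector were shared by the controls, and the sources used here do not say which hairpin sequence the shUSP39 line carried. The 3 libraries of a group are given as biological replicates of 1 line, so the p-values measure the spread between such samples and not between independently made lines.

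AP-1 is a dimer of basic leucine zipper proteins. JUN proteins can pair with themselves or with FOS proteins, FOS proteins need a JUN partner, and the dimers bind the TPA response element TGACTCA or the cyclic AMP response element TGACGTCA. FOS, FOSB, JUN and JUNB are classical immediate early genes, transcribed within minutes of a growth factor or stress signal through the MAP kinases, and AP-1 drives matrix metalloproteinase, cytokine and cell cycle genes in many epithelial cancers.

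The libraries held 28294819 to 32939264 counts each. shUSP39 replicates 2 and 3 stood apart in the number of genes with a count, 15446 and 14890, against 12662 to 12809 in the pGIPZ-NC libraries and 12819 in shUSP39 replicate 1, so the member results were also computed with shUSP39 replicate 1 alone against the 3 controls. In that comparison the spread comes from the pGIPZ-NC libraries only and the lone shUSP39 library is assumed to vary as they do, so a p that no longer passes does not show a smaller change. USP39 itself was not analysed here, which leaves the knockdown labels without a check. Of the ovarian carcinoma markers, 6 of 10 were under 20 counts in every library, among them PAX8 (0 to 6 counts), EPCAM (1 to 6) and CDH1 (0 to 1). Of the other 4, KRT19 had 616 to 836 counts in pGIPZ-NC and 51 to 68 in shUSP39 libraries and KRT8 had 26 to 37 and 0 to 3, while KRT18 had 676 to 711 and 932 to 1075 and MUC16 had 1 to 5 and 6 to 150. The summed level of the fibroblast markers was 12.8 to 15.3 CPM (counts per 1000000 counts of the library) in pGIPZ-NC and 7.96 to 9.15 CPM in shUSP39 libraries. Of these markers LUM had 97 to 176 and 3 to 16 counts and DCN 22 to 49 and 0 to 6. PDGFRB had 30 to 41 and 38 to 46 counts, COL1A1 198 to 245 and 187 to 212, and PDGFRA 0 and 0 to 6. The sum of the leukocyte markers was 9.32 to 11.98 and 11.5 to 12.2 CPM, and that of the endothelial markers 0.389 to 0.434 and 0.503 to 2.05 CPM. The part of these differences in the results was not tested.

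The RNA of 5 of the 8 measured members was higher in the shUSP39 than in the pGIPZ-NC libraries, and none was lower. JUN, BATF3 and FOSL2 rose 3.05-fold, 2.88-fold and 2.01-fold, FOSL1 and JUNB rose 1.23-fold and 1.12-fold, and FOS, FOSB and MAFF did not pass the test. A gene passed at an adjusted p under 0.05 in the quasi-likelihood test of edgeR, with Benjamini-Hochberg adjustment over all 10695 genes tested, and was called when it also changed by more than 2-fold. Over all tested genes 16.1% passed as higher and 17.5% as lower, and 4.53% were called higher and 2.28% called lower, against 5 and 0 of 8 members and 3 and 0 of 8 members. With upper-quartile scaling in place of TMM 2077 genes passed as higher and 1501 as lower, against 1726 and 1872, and the same 5 members passed. The median log2 fold change was 0.23 over the 8 members and 0.0085 over all tested genes. Because the members were chosen with earlier results of these data known, these counts and medians are a description. In 5 members the lowest shUSP39 library exceeded the highest pGIPZ-NC library, an order that 24.1% of all tested genes had. In these bulk libraries a change in the number of cells that express a gene and a change in its RNA per cell cannot be told apart.

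**Figure D1:**
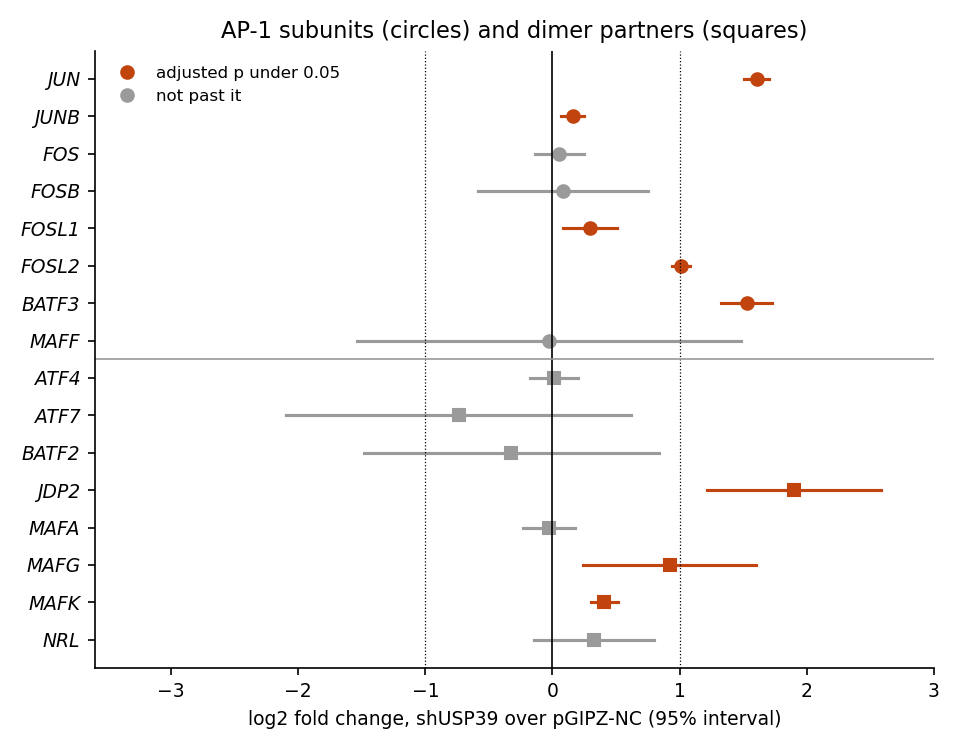
The log2 fold change, shUSP39 over pGIPZ-NC (horizontal axis), of the 8 members (circles) and their tested dimer partners (squares), with bars for the 95% confidence interval, red for genes past the adjusted p, grey for the others and dotted lines at 2-fold. JUN, BATF3 and FOSL2 lie at 1.61, 1.53 and 1.01, FOSL1 and JUNB at 0.29 and 0.16, and the intervals of FOS, FOSB and MAFF span 0.

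The promoters of JUN, FOSL2 and FOS are shown because JUN and FOSL2 rose and FOS did not pass the test. Each sequence is from RefSeq (GRCh38.p14), from 250 bases before to 50 bases after the transcription start, on the strand of the gene, and capitals mark a match to one of the motifs searched. The JUN window is chr1:58783998-58784297 on the minus strand, the FOSL2 window chr2:28392608-28392907 on the plus strand and the FOS window chr14:75278578-75278877 on the plus strand.
JUN: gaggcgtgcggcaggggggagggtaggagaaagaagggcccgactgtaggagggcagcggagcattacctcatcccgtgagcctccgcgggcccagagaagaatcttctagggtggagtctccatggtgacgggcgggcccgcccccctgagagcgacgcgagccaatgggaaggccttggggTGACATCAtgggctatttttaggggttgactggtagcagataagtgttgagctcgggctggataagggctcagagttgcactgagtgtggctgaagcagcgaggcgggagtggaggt
FOSL2: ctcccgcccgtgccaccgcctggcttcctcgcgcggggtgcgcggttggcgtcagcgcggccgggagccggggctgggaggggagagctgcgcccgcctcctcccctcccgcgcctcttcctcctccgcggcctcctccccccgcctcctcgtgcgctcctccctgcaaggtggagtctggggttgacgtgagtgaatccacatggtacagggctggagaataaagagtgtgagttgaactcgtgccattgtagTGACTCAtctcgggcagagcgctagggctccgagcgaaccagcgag
FOS: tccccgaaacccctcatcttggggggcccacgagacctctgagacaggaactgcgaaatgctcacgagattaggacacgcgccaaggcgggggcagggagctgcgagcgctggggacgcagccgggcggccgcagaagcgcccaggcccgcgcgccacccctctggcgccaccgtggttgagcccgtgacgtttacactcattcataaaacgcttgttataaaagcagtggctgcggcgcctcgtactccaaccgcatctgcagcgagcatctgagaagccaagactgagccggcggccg
The motifs searched on both strands were TGACTCA, TGACGTCA, the variant TGACATCA and the CArG box, the binding element of serum response factor. TGACATCA was added after the JUN promoter had been read. The JUN window held TGACATCA starting 67 bases before the start, and the FOSL2 window held TGACTCA from base 5 of the transcript. The FOS window held none of the 4 motifs, which says only that these letters are not in these 300 bases. Among the other members with a promoter entry, MAFF held TGACGTCA 54 bases before the start, and JUNB and FOSB held none. FOSL1 and BATF3 had no entry. Of 35116 promoters of the same length, 4.95% held TGACTCA, 1.85% TGACGTCA, 2.61% TGACATCA and 1.29% the CArG box.

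Of the JUN genes measured, JUN, the founding subunit and a target of JUN N-terminal kinase, had the larger change. It is a gene of 1 exon on chromosome 1 (GRCh37, 59246463 to 59249719, minus strand). Its level was 76.9, 84.4 and 88.4 CPM in pGIPZ-NC replicates 1, 2 and 3 and 261, 252 and 260 CPM in the shUSP39 libraries. The groups were far apart, and shUSP39 replicate 1, which resembled the controls in its number of genes, was the highest of the 6. The means were 83.2 ± 5.80 and 258 ± 5.196 CPM (SD, n = 3 each), a log2 fold change of 1.61 (SE 0.05, edgeR adjusted p = 1.71e-19), which ranked 19 of all tested genes by p. With shUSP39 replicate 1 alone against the controls it was 1.63.

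JUNB, which pairs with the same partners and is usually a weaker activator than JUN, was the most abundant member per length in both groups. Its single exon lies on chromosome 19 (GRCh37, 12902300 to 12904129, plus strand). The 3 pGIPZ-NC libraries had 254, 276 and 256 CPM and the shUSP39 libraries 287, 294 and 312 CPM. The groups did not overlap but lay close together. JUNB rose by 0.16 on the log2 scale (SE 0.04, edgeR adjusted p = 0.00467), and with shUSP39 replicate 1 alone, where 1 library stands for the group, it was 0.11 (edgeR adjusted p = 0.216). The JUNB exon lies within HOOK2 on the opposite strand over all of its 1830 bases, and whether the counting used strand is not given in the sources used here.

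Among the 4 FOS genes measured, FOSL2 had the largest change in RNA. FOSL2, also called FRA2, is a FOS family member without the strong activation domain of FOS, and it was the most abundant of the 4. Its 4 exons lie on chromosome 2 (GRCh37, 28615725 to 28640184, plus strand). The counts gave 356, 369 and 368 CPM in the pGIPZ-NC libraries and 727, 756 and 757 CPM in the shUSP39 libraries. No shUSP39 library came near a control library, and the spread within each group was small. The log2 fold change was 1.01 (SE 0.03, edgeR adjusted p = 1.31e-18), with means of 364 ± 6.95 and 747 ± 16.7 CPM. Its 95% confidence interval of 1.92-fold to 2.11-fold spans the limit of 2-fold, and the log2 value was 0.994 without pGIPZ-NC replicate 1, 0.999 without shUSP39 replicate 3 and 0.97 with shUSP39 replicate 1 alone, while the adjusted p passed in each. Of the FOSL2 exons, 965 bases lie within FOSL2-AS1 on the opposite strand.

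FOSL1, or FRA1, the FOS member most often linked to invasive carcinoma cells, was much less abundant. It has 4 exons on chromosome 11 (GRCh37, 65659520 to 65667859, minus strand). Its level was 14.3, 17.8 and 15.6 CPM in pGIPZ-NC and 19.5, 20.3 and 19.7 CPM in shUSP39 libraries. All shUSP39 libraries were higher, and pGIPZ-NC replicate 2 came closest to them. FOSL1 rose by 0.29 on the log2 scale (SE 0.10, edgeR adjusted p = 0.0276). The call depended on single libraries: the edgeR adjusted p was 0.141 without pGIPZ-NC replicate 1, 0.0898 without pGIPZ-NC replicate 3, 0.0862 without shUSP39 replicate 2 and 0.0576 without shUSP39 replicate 3. With shUSP39 replicate 1 alone as the group the size was nearly the same, 0.27 (edgeR adjusted p = 0.229). Of the 5 coding transcripts of FOSL1 in RefSeq only 1 was counted here, so reads of the others may be missing from its level.

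FOS, the founding partner of JUN and a rapidly induced and rapidly degraded message, stayed within the spread of the libraries. It has 4 exons on chromosome 14 (GRCh37, 75745531 to 75748933, plus strand). Its level was 27.1, 21.9 and 22.3 CPM in pGIPZ-NC and 25.2, 26.1 and 23.9 CPM in shUSP39 libraries. The groups overlapped, with pGIPZ-NC replicate 1 the highest of the 6. The log2 fold change was 0.05 with a 95% confidence interval of -0.14 to 0.24 (edgeR adjusted p = 0.720), an interval that leaves out the changes of JUN and FOSL2.

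FOSB, whose protein resembles FOS and exists in a long and a short form, was near the limit of detection. It has 4 exons on chromosome 19 (GRCh37, 45971254 to 45978437, plus strand). The counts were 31, 52 and 56 in the pGIPZ-NC libraries and 52, 50 and 46 in the shUSP39 libraries. The groups overlapped, and the log2 fold change was 0.08, with a 95% confidence interval of -0.59 to 0.75 (edgeR adjusted p = 0.877). At this depth the counts are compatible with any change within that interval. The table holds 1 of the 3 coding transcripts that RefSeq lists for FOSB, so its forms were not told apart, and all 3775 bases of its exons lie within the span of ERCC1 on the opposite strand.

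The last members are partners outside the FOS and JUN families proper. BATF3 is a small basic leucine zipper protein that pairs with JUN proteins and is known for its part in dendritic cell and T cell differentiation. Its 3 exons lie on chromosome 1 (GRCh37, 212859759 to 212873182, minus strand). BATF3 had 10.1, 11.4 and 9.93 CPM in the pGIPZ-NC libraries and 29.4, 30.9 and 32.3 CPM in the shUSP39 libraries. Every shUSP39 library was well above every control library. The log2 fold change was 1.53 (SE 0.10, edgeR adjusted p = 1.32e-12), and 1.46 with shUSP39 replicate 1 alone. Of the leukocyte markers, 4 of 5 were under 20 counts in every library, and the fifth, CD68, had 295 to 382 counts.

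MAFF, a small MAF protein that lacks an activation domain, was barely detected. Its 3 exons lie on chromosome 22 (GRCh37, 38598001 to 38612514, plus strand). The counts, summed over 2 transcripts, were 11, 11 and 2 in pGIPZ-NC and 4, 12 and 7 in shUSP39 libraries. The groups overlapped, and the log2 fold change of -0.03 had a 95% confidence interval of -1.54 to 1.49 (edgeR adjusted p = 0.984). No direction can be given for this gene, whose exons also lie within PLA2G6 on the opposite strand over 645 bases.

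**Figure D2:**
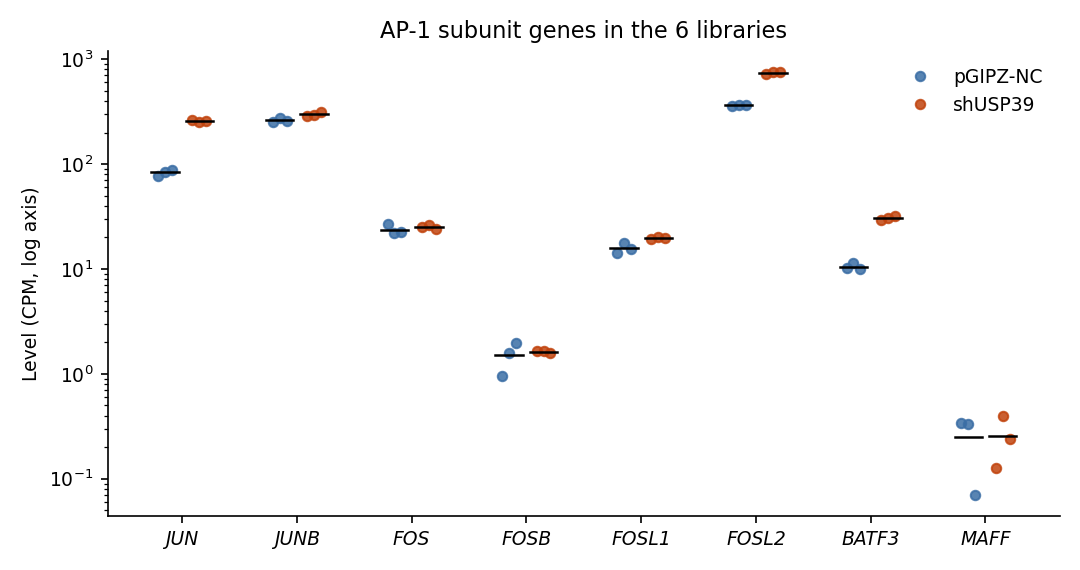
Level of each of the 8 members (CPM, vertical log axis) in the 3 pGIPZ-NC (blue) and 3 shUSP39 (red) libraries, with a point for each library and a line at the mean of the group. The groups are apart for JUN, BATF3, FOSL2, FOSL1 and JUNB and overlap for FOS, FOSB and MAFF.

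The unequal changes altered the make-up of the AP-1 messages. Divided by the length of the transcript in kilobases, JUNB had 143 ± 6.68 CPM per kb in pGIPZ-NC libraries, followed by FOSL2 with 54.3 ± 1.04, JUN with 25.6 ± 1.78, BATF3 with 12.5 ± 0.939, FOS with 11.3 ± 1.36 and FOSL1 with 9.34 ± 1.05 CPM per kb. BATF3 and FOS, and FOS and FOSL1, did not differ beyond their spread in the controls. In the shUSP39 libraries the levels per length were 163 ± 7.17 for JUNB, 111 ± 2.49 for FOSL2, 79.2 ± 1.60 for JUN, 36.9 ± 1.74 for BATF3, 11.9 ± 0.521 for FOS and 11.7 ± 0.261 CPM per kb for FOSL1. The first 4 were apart, and FOS and FOSL1 did not differ beyond their spread. The level over the 8 members together was 257 ± 9.01 CPM per kb in pGIPZ-NC and 414 ± 10.6 in shUSP39 libraries.

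JUNB made up 55.8% ± 0.760 of this sum in pGIPZ-NC and 39.3% ± 0.732 in shUSP39 libraries (SD, n = 3). The share of JUN was 9.95% ± 0.641 and 19.1% ± 0.617, and that of FOSL2 21.2% ± 0.522 and 26.9% ± 0.397. FOS had a share of 4.41% and 2.88%. JUND would enter such a sum and was not analysed here.

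**Figure D3:**
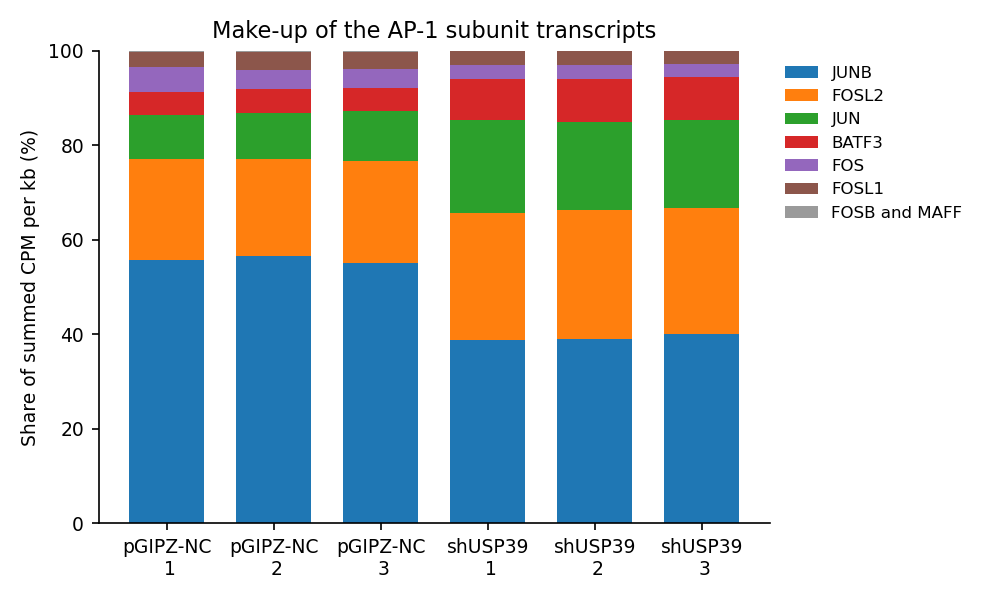
Share of each member in the summed level per length of the 8 members, in percent (vertical axis), for each of the 6 libraries. The JUNB part covers 55.8% of the sum in pGIPZ-NC and 39.3% in shUSP39 libraries, and the JUN part 9.95% and 19.1%.

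Ratios within a library do not depend on the scaling between libraries. The ratio of JUN to JUNB per length was 0.179 ± 0.0134 in pGIPZ-NC and 0.487 ± 0.0222 in shUSP39 libraries, a log2 difference of 1.45. FOSL2 to FOS went from 4.86 to 9.35, and FOSL2 to FOSL1 from 5.85 to 9.55. FOSL2 to JUN went the other way, from 2.13 to 1.41. In these 4 ratios the groups did not overlap, and the two-sided exact permutation test gave p = 0.1, the smallest that 3 against 3 libraries allow. BATF3 to JUN was 0.492 in pGIPZ-NC and 0.466 in shUSP39 libraries, a log2 difference of -0.08 (exact permutation p = 0.5), with single pairs of libraries between -0.26 and 0.14. BATF3 and JUN thus rose by amounts that were not told apart.

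The genes whose log2 CPM (with 1 count added) most resembled that of JUN over the 6 libraries were RPN1 (Pearson r = 0.9993), CHDH (0.9993), HBEGF (0.9992), HLA-E (0.9992) and NES (0.9987), of 6780 genes compared, those with at least 5 CPM in either group. JUN was taken for this because it had the lowest adjusted p of the members. With 6 libraries in 2 groups such an r mainly reflects the gap between the groups, and it is given as a description. HBEGF, an epidermal growth factor receptor ligand, had 24.4, 26.0 and 26.0 CPM in pGIPZ-NC and 39.5, 38.7 and 39.7 CPM in shUSP39 libraries.

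Around the members, the other basic leucine zipper partners that can enter AP-1 dimers were also tested. Of 8 tested partners, 3 rose and none fell, with a median log2 fold change of 0.17. The shares were 37.5% higher and 0% lower, against 16.1% and 17.5% of all tested genes. JDP2, a repressor that pairs with JUN, rose from 0.630 ± 0.0345 to 2.41 ± 0.302 CPM (log2 fold change 1.90, edgeR adjusted p = 4.94e-05). It was summed over several transcripts, and taking its most counted transcript in place of the sum gave 1.46, which did not pass (edgeR adjusted p = 0.0558). MAFK, a small MAF protein like MAFF, rose by 0.41 on the log2 scale (edgeR adjusted p = 3.47e-07). MAFG also passed at 0.92 (edgeR adjusted p = 0.0409), with 14.2 CPM in shUSP39 replicate 3 against 5.82 and 7.67 CPM in the others, and without that library its log2 fold change was 0.47 (edgeR adjusted p = 0.0902). It also did not pass without any one of the pGIPZ-NC libraries (edgeR adjusted p = 0.166, 0.148 and 0.0586 without replicates 1, 2 and 3). MAFK and MAFG were named after their values were seen.

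Of 17 tested kinases of the MAP kinase cascades, which carry signals to AP-1 and here include the downstream ribosomal S6 kinases, 4 rose, 4 fell and 9 did not pass, and the median was -0.05. These shares, 23.5% each way, lay near the 16.1% higher and 17.5% lower of all tested genes. Of 27 kinases listed, 23 were among the gene symbols. Of the JUN N-terminal kinases, MAPK8 was not analysed here, MAPK10 had 0 to 1 counts and was not tested, and MAPK9 had 11 to 21 counts. MAP2K4, with 1 to 8 counts, was not tested either. They were named after their values were seen. The shares therefore say little about the JUN N-terminal kinase branch. MAP2K6, which activates p38, fell from 27.4 ± 1.72 to 9.02 ± 0.524 CPM (log2 fold change -1.63, edgeR adjusted p = 9.67e-13). MAP2K3, which has the same substrate, rose from 0.661 to 1.66 CPM (log2 fold change 1.30, edgeR adjusted p = 0.0128). This call was lost without shUSP39 replicate 2 (1.07, edgeR adjusted p = 0.0937) and with the highest transcript of each gene (0.99, edgeR adjusted p = 0.0911). With shUSP39 replicate 1 alone against the controls the log2 fold change of MAP2K3 was 0.62. The dual-specificity phosphatases, which dephosphorylate MAP kinases and are themselves transcribed when these kinases are active, were mostly higher: 8 of 9 rose, 1 fell (DUSP16, by 0.21 on the log2 scale, named after its value was seen), and the median was 0.54. As shares, 88.9% were higher and 11.1% lower, against 16.1% and 17.5% of all tested genes. DUSP8 rose from 2.31 to 7.78 CPM and DUSP4 from 1.10 to 3.10 CPM (log2 fold changes 1.71 and 1.46, edgeR adjusted p = 6.58e-07 and 0.000240).

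Of 9 tested transcription factors that act on the FOS and JUN promoters, 4 rose, 1 fell and 4 did not pass. The median was 0.24, and none was called beyond 2-fold. The shares were 44.4% higher and 11.1% lower, against 16.1% and 17.5% of all tested genes. SRF itself did not pass, at 0.16 on the log2 scale. MKL2, a cofactor of serum response factor, fell by 0.63 on the log2 scale (edgeR adjusted p = 0.0270). MKL2 did not pass without any one of the pGIPZ-NC libraries (edgeR adjusted p = 0.0562, 0.0683 and 0.0567 without replicates 1, 2 and 3). It also did not pass without shUSP39 replicate 3 (edgeR adjusted p = 0.143). SRF and MKL2 were named after their values were seen. The ternary complex factors ELK4 and ELK3, which bind with serum response factor at the FOS promoter, rose from 210 to 270 CPM and from 70.4 to 94.0 CPM (log2 fold changes 0.34 and 0.39). Leaving out 1 library at a time, between 3 and 6 of the 9 passed, with 3 without pGIPZ-NC replicate 3.

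Genes for the turnover of JUN and FOS, the ubiquitin ligase parts and their partners, gave the opposite count. Of 9 tested none rose and 5 fell, all by less than 2-fold, with a median of -0.14. The shares were 0% higher and 55.6% lower, against 16.1% and 17.5% of all tested genes. CUL4A, DDB1, RBX1, COPS5 and NDFIP1 were the 5, all but DDB1 and RBX1 named after their values were seen. COPS5 did not pass under upper-quartile scaling (edgeR adjusted p = 0.0877). CUL4A did not pass without pGIPZ-NC replicate 3 or without shUSP39 replicate 2 (edgeR adjusted p = 0.0533 and 0.0567). DDB1, the adaptor of the CUL4 ligases, fell from 1143 to 1023 CPM (edgeR adjusted p = 1.16e-05), and RBX1, the RING subunit, from 141 to 124 CPM (edgeR adjusted p = 0.000680). Of 8 tested RNA-binding proteins that destroy or protect AU-rich messages such as FOS, 2 were higher and 2 lower, each 25.0%, near the shares of all tested genes. ZFP36L2, a decay factor, rose by 0.33 and ELAVL1, a stabiliser, fell by 0.11 on the log2 scale (not past under upper-quartile scaling, edgeR adjusted p = 0.138, or without shUSP39 replicate 2, 0.0569), and between 1 and 4 of the 8 passed when 1 library was left out, with 1 without shUSP39 replicate 2 and 2 without pGIPZ-NC replicate 3 or shUSP39 replicate 3.

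The other immediate early genes, which share the signals that induce FOS and JUN, were mostly higher. Of 23 tested, 14 rose and 2 fell, and the median was 0.44. The shares were 60.9% higher and 8.70% lower, against 16.1% and 17.5% of all tested genes. DUSP1 and ZFP36, which rose, are also in the phosphatase and AU-rich decay lists and were named after their values were seen. ZFP36 passed narrowly, at 0.20 on the log2 scale (edgeR adjusted p = 0.0451). It did not pass without pGIPZ-NC replicate 1 or 3 (edgeR adjusted p = 0.201 and 0.129). Nor did it pass without shUSP39 replicate 1 or 2 (edgeR adjusted p = 0.0693 and 0.126). IER3, a survival gene, had 89.0, 90.5 and 84.5 CPM in pGIPZ-NC and 214, 211 and 218 CPM in shUSP39 libraries (log2 fold change 1.26, edgeR adjusted p = 1.02e-17). PPP1R15A, a regulator of the stress response, rose from 59.9 to 133 CPM. The transcription factors NR4A2 and EGR4 rose from 2.52 to 6.20 and from 5.003 to 10.98 CPM. The 2 that fell, EGR1 and CTGF, went from 274 to 242 and from 91.7 to 70.4 CPM (edgeR adjusted p = 0.000315 and 1.14e-06), and were named after their values were seen.

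**Figure D4:**
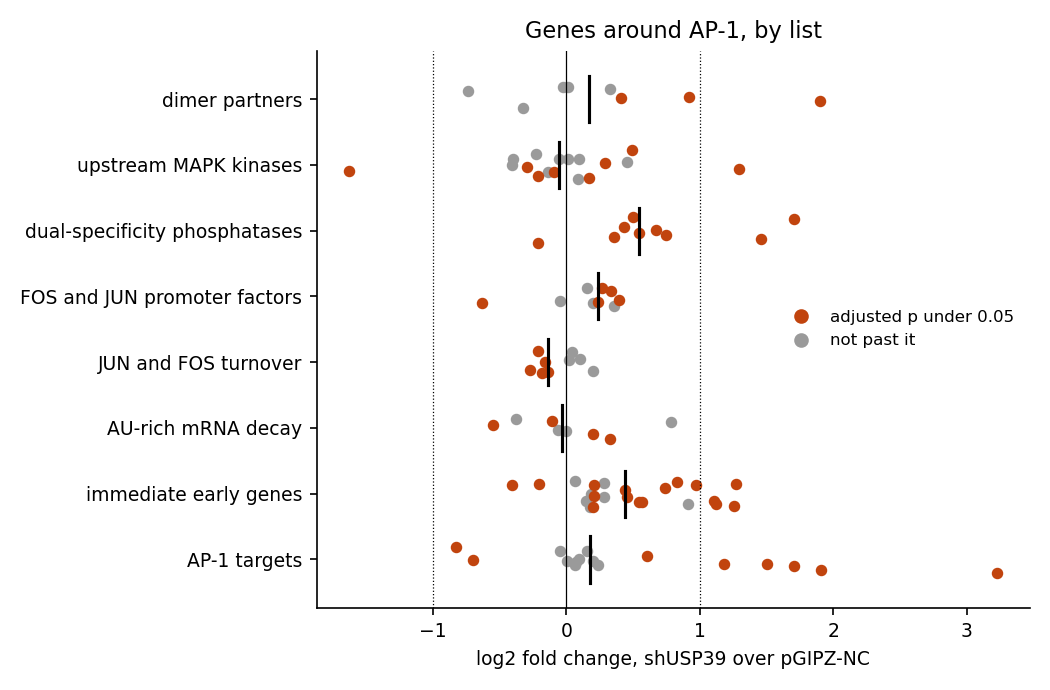
The log2 fold change, shUSP39 over pGIPZ-NC (horizontal axis), of each tested gene of the 8 lists, in red where it passed the adjusted p and grey where it did not, with a black bar at the median of the list and dotted lines at 2-fold. The phosphatases (8 of 9 higher) and the immediate early genes (14 of 23 higher) have mostly higher genes, and the turnover genes have 5 lower and 0 higher of 9. Over all tested genes 16.1% passed as higher and 17.5% as lower.

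Of 16 textbook targets of AP-1 tested and reported here, 6 rose, 2 fell and 8 did not pass, and the median was 0.18. The shares were 37.5% higher and 12.5% lower, against 16.1% and 17.5% of all tested genes. Those called as higher were 3 matrix metalloproteinases, the chemokine CCL2 and the cytokine IL11. MMP3 (stromelysin) had the largest change of the list, from 930 ± 27.0 to 8879 ± 195 CPM (log2 fold change 3.23, SE 0.03, edgeR adjusted p = 4.53e-31). MMP1, the interstitial collagenase whose promoter was used to define the TPA response element, rose from 108 ± 7.10 to 413 ± 15.2 CPM, and MMP10 from 554 ± 13.8 to 1837 ± 29.4 CPM (log2 fold changes 1.91 and 1.70). In each of these genes every shUSP39 library lay above every control library. CCL2 rose from 1.01 to 2.91 and IL11 from 3.94 to 9.07 CPM. HBEGF, the sixth, rose by 0.60 on the log2 scale.

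The 2 targets that fell were a protease inhibitor gene and a metal-binding protein gene. TIMP1, the tissue inhibitor of metalloproteinases, went from 3610 to 2076 CPM (log2 fold change -0.82, edgeR adjusted p = 7.63e-19), and MT2A, a metallothionein, fell by 0.70 on the log2 scale. HBEGF, TIMP1 and MT2A were named after their values were seen. Genes such as VEGFA have many RefSeq coding transcripts and 1 in the table, so their levels may be too low.

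**Figure D5:**
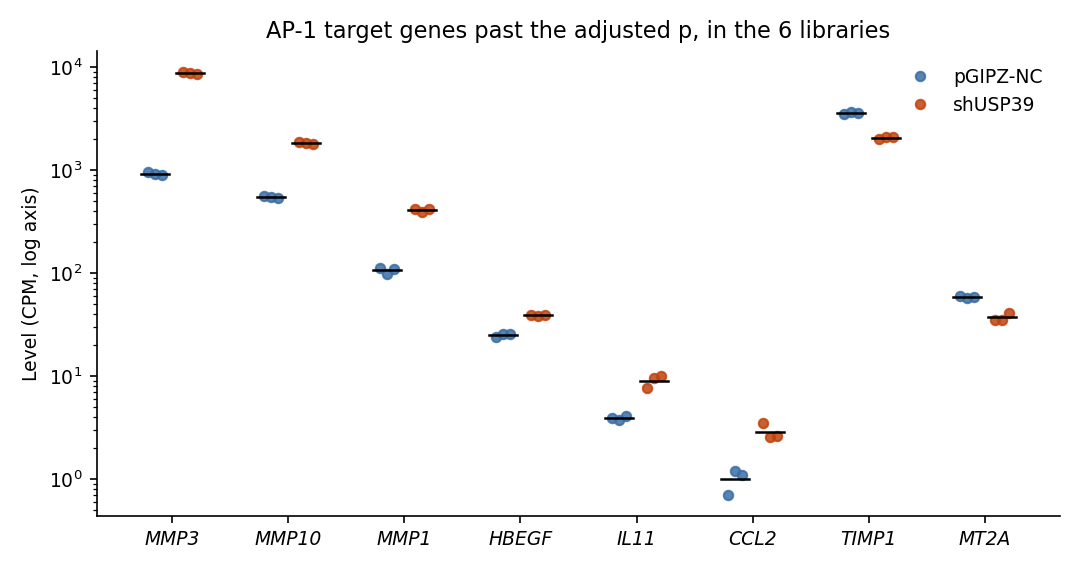
Level (CPM, vertical axis, log scale) of the AP-1 target genes past the adjusted p in the 3 pGIPZ-NC and 3 shUSP39 libraries, with a point for each library and a line at the group's mean. MMP3, MMP1 and MMP10 lie higher in the shUSP39 libraries and TIMP1 and MT2A lower.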

How the data were processed

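RNA-seq had been done on 3 pGIPZ-NC and 3 shUSP39 libraries of A2780 cells. The deposited values were raw read counts per RefSeq transcript, made by the authors. Per the labels, the submitters' processing notes name HISAT2, Cufflinks and the genome build hg19. The counting program, its use of strand and its treatment of reads shared by transcripts are not given in the sources used here. The table had 21368 rows, which were summed to 16571 gene symbols. Symbols turned into dates by a spreadsheet were restored from the accession for 46 rows, and 1 was left.

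Counts were tested with edgeR 4.0.16 (R 4.3.3) by the quasi-likelihood test with robust dispersion after filterByExpr and TMM scaling, with Benjamini-Hochberg adjustment over 10695 genes. Genes passed at an adjusted p under 0.05 and were called beyond 2-fold. The method was tested on simulated data. The biological coefficient of variation was 7.59%. CPM is the count per 1000000 of the library total, which was 28294819 to 32939264, and was divided by the length of the MANE transcript (GENCODE on GRCh37) to compare genes. Ratios were compared with a two-sided exact permutation test, and confidence intervals cover the spread between libraries.

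The named list genes were those called beyond 2-fold or, in a list with none, the 2 with the lowest adjusted p. One gene of the AP-1 target list is not reported here and was left out of that list's counts. The members and lists were chosen with earlier results of these data known. Alternatives were other scalings, filters and fold limits, DESeq2 1.42.0, limma-voom 3.58.1, the replicate number as a block, the highest transcript of each gene and leaving out each library. The alternative with shUSP39 replicate 1 alone was chosen after seeing the data.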

Additional observations from a re-analysis of the deposited data

How the results depend on the processing

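JUN, BATF3 and FOSL2 kept their direction and passed the adjusted p under all 16 alternatives in which they were computed, with JUN between 1.55 and 1.65 on the log2 scale. The phosphatase, immediate early and target lists changed by less than 1.5 times. FOSL1 ranged from 0.22 to 0.38 when 1 library was left out and was 0.27 with shUSP39 replicate 1 alone, where JUNB was 0.11 and neither passed. With that library alone, assumed to vary like the controls, 3 members, 4 kinases, 3 promoter factors, 2 turnover genes and 1 AU-rich decay gene passed, counts that a group of 1 library lowers by construction. Leaving out 1 library gave 4 to 5 members, 3 to 6 promoter factors and 1 to 4 AU-rich decay genes. With the highest transcript of each gene, 1 dimer partner passed, MAFK and not JDP2 or MAFG. The cause of these differences was not tested.

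The 3 genes that did not pass changed sign: MAFF was 0.019 under upper-quartile scaling, 0.00066 with library size only, 0.070 in limma-voom, 0.023 with the replicate block, -1.001 with shUSP39 replicate 1 alone, and -0.50 to 0.30 leaving out 1 library. FOSB ranged from -0.16 to 0.31 and FOS from -0.0058 to 0.16 in the same way. Over all tested genes 728 were called, 1226 with a limit of 1.5-fold, and 677 to 836 leaving out 1 library. With at least 10 counts in every library, a filter that removes genes low in either group, 471 were called. Of these 346 were higher and 125 lower, against 484 and 244 in the main fit.

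No pairing of the libraries by replicate number was seen: same-numbered libraries had correlations of 0.0645, 0.00485 and 0.0192 of their deviations, and they did not all correlate best with their own number. With 3 libraries in a group such correlations cannot exclude a pairing. With the replicate number as a block, JUN was 1.61, FOSL2 1.01, BATF3 1.53, FOSL1 0.30 and JUNB 0.16, 5 members passed, and 745 genes were called. Over all tested genes 1904 then passed as higher and 2077 as lower, against 1726 and 1872 without the block. Depth limits FOSB and MAFF, which had at most 56 and 12 counts in a library.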
